A study of Mus musculus with 8 samples.

Results

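Genes that copy the genome and divide the cell were followed across mouse embryonic stem (ES) cells with and without the Rbp2 protein, before and after loss of the cytokine LIF. They are 50 genes of DNA replication and mitosis, listed by name, and each was measured by all probe sets whose only gene symbol in the platform's annotation was that gene. Of the 50 listed, 49 had such a probe set, giving 110 probe sets of 45101 and 49 genes of 18194. The brightest probe set stood for each gene, and 48 of the 49 were bright enough to be tested, among 10916 genes tested in all. Ccnb1 was not analysed here. Tyms, the enzyme that makes thymidylate, lay below the brightness cut, with normalised intensities from 13.4 to 23.2 over the 8 arrays.

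The study hybridised RNA from ES cells of 2 genotypes, Rbp2f/f and Rbp2-/-, to Affymetrix mouse genome expression arrays. Each genotype was taken subconfluent from medium with LIF (leukemia inhibitory factor, which holds mouse ES cells undifferentiated) and after 6 days in the same medium lacking LIF, with 2 arrays in each of the 4 groups. Rbp2, now named Kdm5a, is a histone demethylase first found as a partner of the retinoblastoma protein, and the design asks how its loss changes expression in undifferentiated and in differentiating cells. The sources used here do not give how the Rbp2-/- cells were derived, whether each genotype is 1 clone or several, or whether feeder cells were present. The titles call the duplicates biological replicates without naming separate cultures, and p-values here reflect only the scatter of these arrays, which may be partly technical.

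Replication is prepared in G1, when the origin recognition complex (Orc1 and its partners), Cdc6 and Cdt1 load the ring-shaped MCM helicase onto DNA, and it starts when Cdc45 and the GINS complex turn that helicase on. Genes of this first group are classic targets of E2F factors, whereas genes of mitosis peak later under the MuvB complex with B-Myb and Foxm1, acting at CHR and CCAAT promoter elements. Mouse ES cells are known for a short G1 phase and a high output of both programmes, and the cycle lengthens as they differentiate.

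These elements were unevenly spread over the promoters of the members, and 1 promoter for each of 5 roles is printed because it carries the most matches of these elements upstream of the start within its role. The elements searched, on both strands and with overlapping matches counted separately, were E2F (TTTCCCGC, TTTGGCGC, TTTCGCGC or TTTGCCGC), CHR (TTTGAA or TTCGAA) and CCAAT. RefSeq promoter windows of build GRCm38.p6, from 250 bases before to 50 bases after a gene's start, were matched by symbol for 39 of the members, with 43 windows among 32851. E2F matches were in 40.7% of the 27 windows of replication genes, 6.25% of the 16 windows of mitosis genes and 2.26% of all windows. A CHR and a CCAAT match occurred together in 14.8% of the replication windows, 68.8% of the mitosis windows and 7.52% of all windows. The 250 bases upstream of the start are given 5′ to 3′ on the gene's strand, with matches in capitals. All 5 genes lie on the minus strand: Mcm6, a helicase subunit, at chr1:128359706-128359955; Rfc3, a subunit of the clamp loader, at chr5:151651209-151651458; Cdk1, the mitotic kinase, at chr10:69352913-69353162; Cdc20, the activator of the anaphase-promoting complex, at chr4:118437344-118437593; and Top2a, the topoisomerase that untangles sister chromatids, at chr11:99024190-99024439.
Mcm6: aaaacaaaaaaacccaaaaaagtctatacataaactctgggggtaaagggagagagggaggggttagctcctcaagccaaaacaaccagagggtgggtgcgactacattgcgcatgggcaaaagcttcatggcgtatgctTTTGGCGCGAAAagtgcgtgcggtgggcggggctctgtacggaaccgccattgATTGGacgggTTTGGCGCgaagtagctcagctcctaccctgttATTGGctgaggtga
Rfc3: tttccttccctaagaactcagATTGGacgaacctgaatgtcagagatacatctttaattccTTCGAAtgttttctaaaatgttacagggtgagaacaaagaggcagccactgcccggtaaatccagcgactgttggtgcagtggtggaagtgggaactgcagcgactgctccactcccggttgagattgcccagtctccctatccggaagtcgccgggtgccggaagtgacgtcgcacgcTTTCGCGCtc
Cdk1: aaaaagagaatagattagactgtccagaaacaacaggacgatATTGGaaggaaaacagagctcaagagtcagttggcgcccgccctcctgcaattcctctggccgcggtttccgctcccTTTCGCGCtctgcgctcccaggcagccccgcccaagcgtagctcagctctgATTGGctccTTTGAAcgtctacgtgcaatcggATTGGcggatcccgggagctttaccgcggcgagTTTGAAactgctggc
Cdc20: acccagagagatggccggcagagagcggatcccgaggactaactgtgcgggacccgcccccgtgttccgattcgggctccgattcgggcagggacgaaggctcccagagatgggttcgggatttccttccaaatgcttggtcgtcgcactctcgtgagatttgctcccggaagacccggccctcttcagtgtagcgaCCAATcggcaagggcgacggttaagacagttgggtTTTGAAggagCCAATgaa
Top2a: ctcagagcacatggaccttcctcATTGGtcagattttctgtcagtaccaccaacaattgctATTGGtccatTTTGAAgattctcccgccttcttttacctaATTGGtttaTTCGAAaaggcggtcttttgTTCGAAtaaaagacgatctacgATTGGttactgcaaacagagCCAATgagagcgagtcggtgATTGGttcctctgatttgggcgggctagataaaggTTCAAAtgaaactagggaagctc

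Mcm6 held 3 E2F matches, the nearest 47 bases before the start, and no CHR match in the printed stretch. Cdk1 held matches of all 3 kinds, with an E2F match 131 bases, CHR matches 71 and 15 bases, and CCAAT matches 208, 80 and 48 bases before the start. Top2a held 4 CHR and 6 CCAAT matches and no E2F match. A match is only a string of letters; no factor binding was measured here.

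The arrays as deposited were not at a common level, with a trimmed mean of 77.5 for Rbp2-/- with LIF replicate 2 and 110.5 to 128.4 for the others, so intensities were quantile-normalised. Replicate arrays correlated at 0.959 to 0.983 over the genes tested. The targeted gene followed the labels: Kdm5a read 134 and 168 in Rbp2f/f with LIF against 34.1 and 43.5 in Rbp2-/- with LIF, and 210 and 225 against 95 and 66.7 without LIF. Where its probe set lies relative to the deleted part was not analysed here. Each of the 10 ES cell markers fixed for the check was above the brightness cut, and their summed intensity was 19028 to 23914 with LIF and 3559 to 4886 without it. The 12 measured feeder fibroblast markers, 10 of them above the cut and Lum and Dcn below it, summed to 644 to 1771 with LIF, to 2722 and 2414 in Rbp2f/f without LIF, and to 5690 and 2679 in Rbp2-/- without LIF. Early differentiation markers, 9 of 12 above the cut and with Hand1 the brightest without LIF, summed to 452 to 874 with LIF, to 2927 and 2562 in Rbp2f/f without LIF, and to 4530 and 4374 in Rbp2-/- without LIF. The part of these cell populations in the results was not tested.

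**Figure D1:**
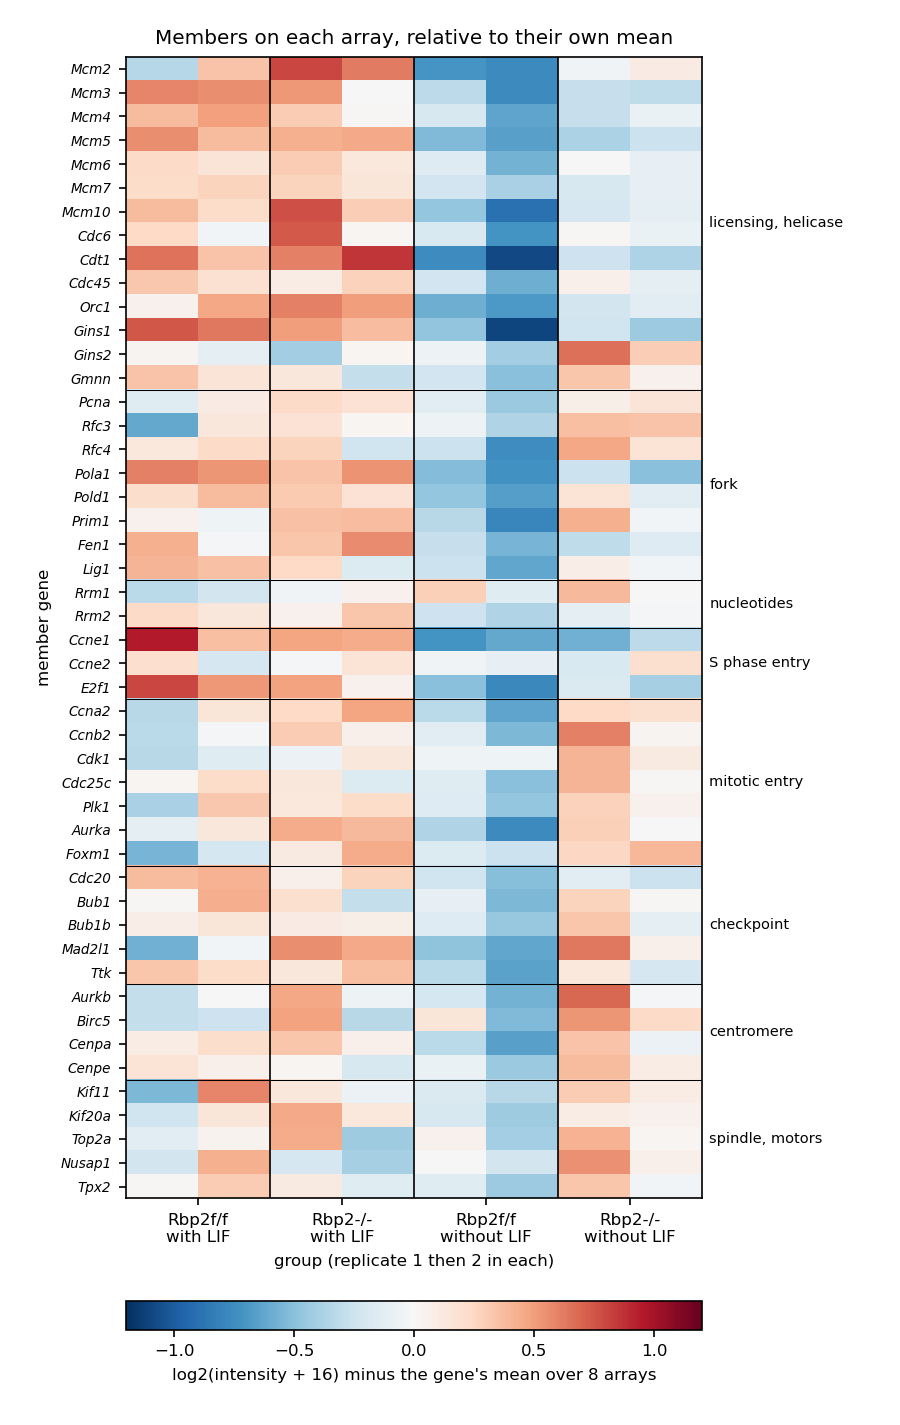
Colour gives the log2 intensity of each of the 48 tested members (rows, by role) on each of the 8 arrays (columns) relative to that member's mean over the arrays. Most replication genes are lowest on the Rbp2f/f arrays without LIF, where the median member read 9.23 and 8.98 on the log2 scale against 9.69 and 9.45 on the Rbp2-/- arrays without LIF.

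When LIF was withdrawn from Rbp2f/f cells, 23 of the 48 members fell and none rose (limma, Benjamini-Hochberg adjusted p under 0.05). Of all 10916 genes, 26.7% were called in this comparison and 13.0% were called lower. The genes that fell were mainly those of replication, 19 of 27 tested against 4 of 21 for mitosis, a difference in shares that was not itself tested. The median log2 difference was -0.68 over the replication genes, -0.28 over the mitosis genes, -0.55 over all members and -0.02 over all genes tested. In 31 of 48 members both arrays without LIF lay below both arrays with LIF, as did 35.1% of all genes. In RNA from whole cultures, fewer cells in cycle and less of each transcript per cell cannot be told apart.

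Origin licensing and helicase genes moved together, 12 of 14 falling with a median of -0.79. Every MCM member, Mcm2 to Mcm7 and the replication factor Mcm10, fell, by log2 differences between -0.55 and -1.11. Mcm5, a ring subunit, read 3413 and 3009 with LIF and 1589 and 1461 without, a difference of -1.06 ± 0.13 (SE, n = 2 arrays a group, as for all differences here; limma adjusted p = 0.000857). Cdt1, which brings the helicase to origins, went from 2795 and 2263 to 1047 and 828 (-1.42 ± 0.17, adjusted p = 0.000872). For both genes the arrays with LIF lay far above those without. Gins1, of the GINS complex, gave the extreme of the group at -1.48, and Gmnn, the inhibitor of Cdt1, fell by 0.61. Cdc6 and Gins2 did not pass, at -0.56 and -0.20.

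Among fork genes 4 of 8 fell, the polymerases Pola1 and Pold1, the flap nuclease Fen1 and the ligase Lig1. Pola1, the catalytic subunit that starts each strand with primase, read 251 and 238 with LIF and 107 and 90.5 without (-1.18 ± 0.19, adjusted p = 0.00295). Pold1, the lagging-strand polymerase, read 688 and 773 against 424 and 368 (-0.86 ± 0.18, adjusted p = 0.00795). The sliding clamp gene Pcna was at -0.27 and the clamp loader subunit Rfc3 at 0.03, neither passing. For nucleotide supply, the reductase subunit Rrm2 fell, from 4017 and 3775 to 2873 and 2669 (-0.49 ± 0.13, adjusted p = 0.0219), while its partner Rrm1 was at 0.34 ± 0.19 (adjusted p = 0.211), with 937 and 1009 against 1436 and 1065. The fitted values of these subunits of the same enzyme thus had opposite signs, with only that of Rrm2 past the threshold.

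The S phase inducers Ccne1 and E2f1 were among the members with the largest falls. Ccne1, cyclin E1, went from 1826 and 1200 to 562 and 605 (-1.32 ± 0.21, adjusted p = 0.00274), and E2f1, the transcription factor, from 268 and 217 to 98.8 and 79.4 (-1.30 ± 0.22, adjusted p = 0.00387). Cyclin E2 (Ccne2) was at -0.06, with intensities between 97.3 and 134 on the 4 arrays. The 4 mitosis genes that fell were Cdc20, the checkpoint kinase Ttk, the spindle kinase Aurka and the centromeric histone Cenpa. Cdc20 read 3972 and 4079 with LIF and 2593 and 2144 without (-0.77 ± 0.14, adjusted p = 0.00466). Ttk went from 283 and 262 to 174 and 136 (-0.76 ± 0.20, adjusted p = 0.0226), and Cenpa from 1354 and 1475 to 1014 and 805 (-0.64 ± 0.19, adjusted p = 0.0364). Aurka sat at the threshold, with 892 and 1067 against 751 and 565 (-0.57 ± 0.19, adjusted p = 0.0499). Over 18 other settings Cenpa missed the threshold in 9, Ttk in 7 and Rrm2 in 6.

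Most mitosis genes did not pass in Rbp2f/f cells, among them Cdk1 at 0.19 and Foxm1 at 0.18. Ccna2 (cyclin A2) read 1234 and 1722 with LIF and 1241 and 996 without (-0.39 ± 0.19, limma adjusted p = 0.16), so its arrays overlapped. The spindle assembly factor Tpx2 read 391 and 483 against 348 and 281 (-0.45 ± 0.21, adjusted p = 0.137), and the kinetochore motor Cenpe 293 and 270 against 244 and 186 (-0.38 ± 0.20, adjusted p = 0.192). Kif20a, a cytokinesis motor, read 417 and 550 against 431 and 364 (-0.26 ± 0.20, adjusted p = 0.353).

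These counts leaned on individual arrays. Without Rbp2f/f without LIF replicate 2 only 6 members were called and the median was -0.34, while the calls over all genes went from 2917 to 852. Without replicate 1 of that group 15 members and 1410 of all genes were called, and without Rbp2f/f with LIF replicate 1 or 2 it was 14 members each and 1719 or 2101 genes. On the deposited scale 12 members were called, of 2183 genes, and with no brightness filter 15, of 2551.

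**Figure D2:**
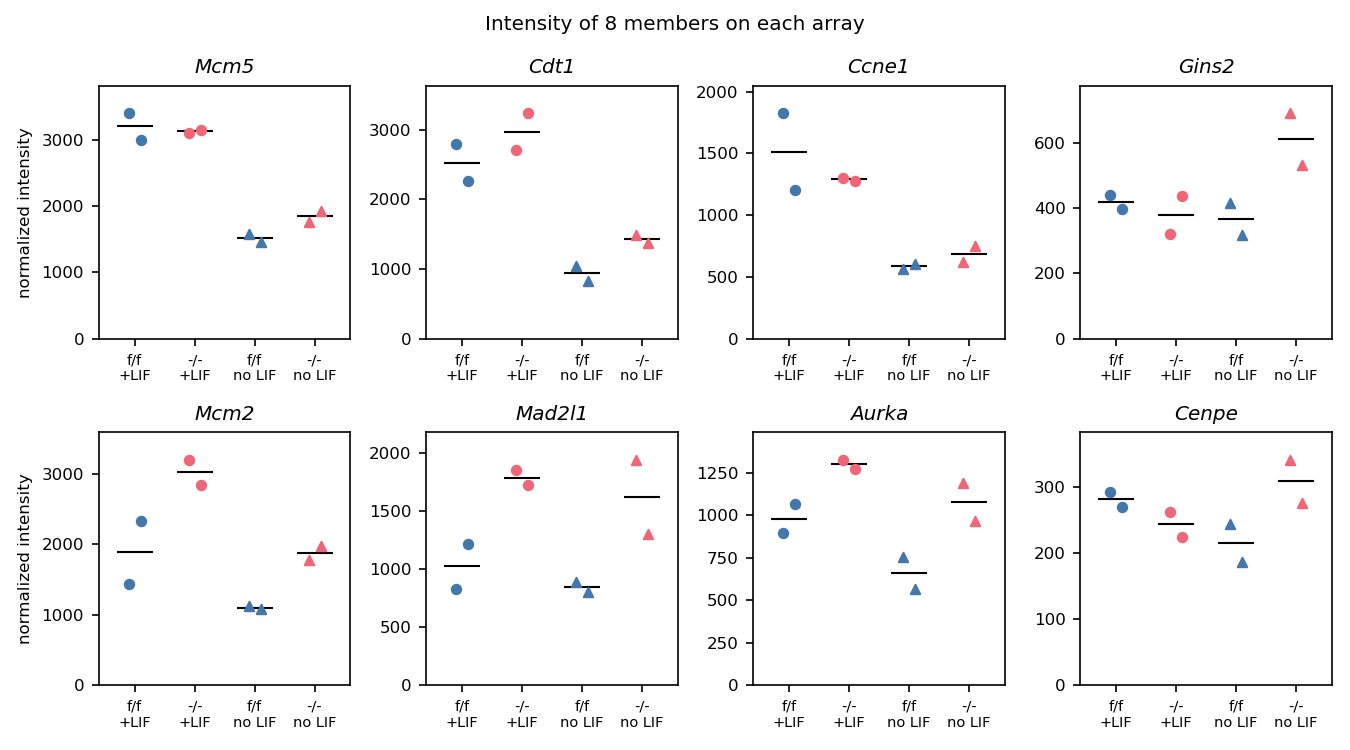
Normalised intensity (linear axis from 0) of 8 members on each array, 2 points a group with a bar at their mean. Cdt1 reads 828 to 1047 in Rbp2f/f without LIF, 1368 and 1493 in Rbp2-/- without LIF and 2263 to 3241 in both groups with LIF.

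In Rbp2-/- cells LIF withdrawal lowered 7 of 48 members and raised none, where 15.3% of all genes were called and 8.08% were called lower. All 7 were replication genes: Mcm5, Cdt1, Orc1, Gins1, Pola1, Fen1 and Ccne1. They were also called in Rbp2f/f cells, making up 100% of the list in Rbp2-/- and 30.4% of the list of 23. The same overlap over all genes tested was not counted, so these shares cannot be called particular to the members. Over all genes tested the withdrawal differences of the genotypes correlated at 0.74. The median difference was -0.15 over the members, -0.34 over the replication genes and 0.14 over the mitosis genes, of which 13 of 21 lay above 0 and none passed. The arrays without LIF lay below those with LIF for 23 of 48 members, against 29.7% of all genes.

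Cdt1 fell most, from 2704 and 3241 to 1493 and 1368 (-1.04 ± 0.17, adjusted p = 0.00477), and Mcm5 from 3109 and 3163 to 1769 and 1929 (-0.76 ± 0.13, adjusted p = 0.0052). Pola1 went from 207 and 240 to 131 and 108 (-0.82 ± 0.19, adjusted p = 0.0191) and Ccne1 from 1300 and 1276 to 619 and 747 (-0.91 ± 0.21, adjusted p = 0.0184). In these 4 genes the pairs of arrays were well apart. Calls near the threshold were Orc1, the origin-binding subunit (348 and 323 against 190 and 204, -0.72 ± 0.19, adjusted p = 0.0346), Fen1 (1259 and 1481 against 805 and 893, -0.68 ± 0.19, adjusted p = 0.044) and Gins1 (365 and 330 against 212 and 183, -0.77 ± 0.23, adjusted p = 0.0487). Over 18 other settings Fen1 and Gins1 each missed the threshold in 12, Orc1 in 10, Pola1 in 6, and Mcm5 and Ccne1 in 3 each. Averaging all probe sets of Pola1 put its difference at -0.21 (adjusted p = 0.5; the range over the settings was 0.017 to 0.5).

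The other genes that fell in Rbp2f/f missed the threshold in Rbp2-/-, and the test of the difference between the genotypes, given further on, called none of them. E2f1 read 211 and 153 with LIF and 128 and 108 without (-0.55 ± 0.22, limma adjusted p = 0.125), Rrm2 3542 and 4305 against 3163 and 3380 (-0.26 ± 0.13, adjusted p = 0.215), and Cdc20 3195 and 3672 against 2804 and 2553 (-0.35 ± 0.14, adjusted p = 0.113). Aurka read 1327 and 1274 against 1187 and 967 (-0.28 ± 0.19, adjusted p = 0.357) and Ttk 245 and 289 against 243 and 191 (-0.28 ± 0.20, adjusted p = 0.381). All 5 had values below 0, as in Rbp2f/f. Lig1 was at -0.01 and Gmnn at 0.27.

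Values above 0 that did not pass came from several mitosis genes. Cenpe read 263 and 225 with LIF and 342 and 276 without (0.32 ± 0.20, limma adjusted p = 0.317), Birc5 (survivin, a chromosomal passenger protein) 2282 and 1285 against 2355 and 1907 (0.30 ± 0.28, adjusted p = 0.51) and Cdk1 2071 and 2389 against 2885 and 2334 (0.22 ± 0.15, adjusted p = 0.354). The arrays of Birc5 and Cdk1 overlapped. Rrm1 read 1145 and 1219 against 1545 and 1176 (0.19 ± 0.19, adjusted p = 0.545), and Kif20a lay below 0, at 683 and 541 against 529 and 516 (-0.21 ± 0.20, adjusted p = 0.512). The values farthest above 0 were those of Gins2, at 0.68 ± 0.22 (adjusted p = 0.0709), and of Nusap1, a spindle microtubule protein, at 0.60 ± 0.25 (465 and 405 against 793 and 562, adjusted p = 0.135), and neither passed. Without Rbp2-/- without LIF replicate 1 a single member was called (557 of all genes), without replicate 2 of that group or replicate 1 with LIF 3 were (1036 and 894 of all genes), and on the deposited scale, where the median of all genes was at 0.39, 3 passed and 1 of these lay below that median. Of all genes, 2486 were called on the deposited scale, against 1674 in the main setting. Median centring gave 4 calls among the members, 3 lower, beside 1552 of all genes. No brightness filter gave 4, beside 1302 genes.

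**Figure D3:**
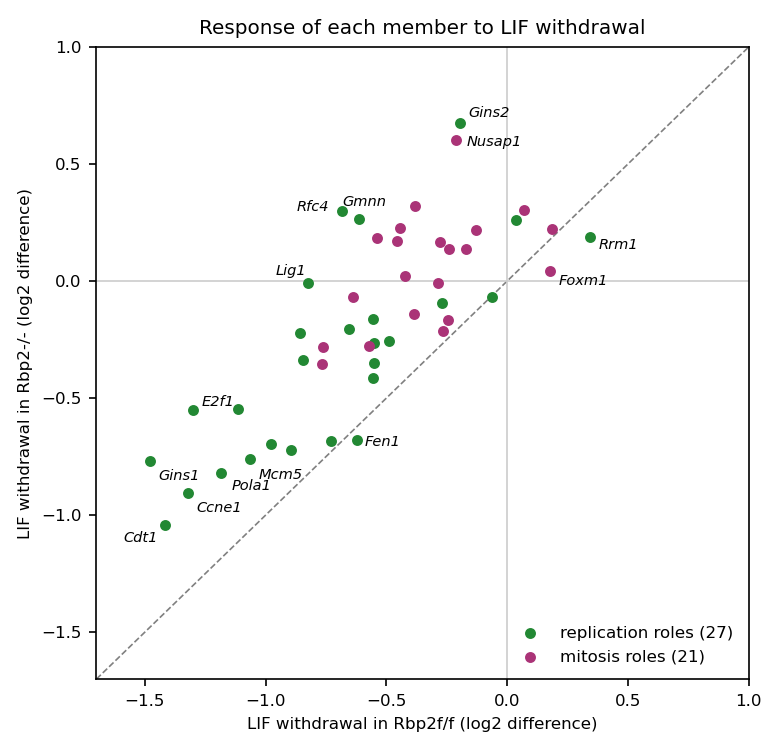
Each point is a tested member, with its log2 difference on LIF withdrawal in Rbp2f/f cells (horizontal) and in Rbp2-/- cells (vertical); green marks replication and purple mitosis, and the dashed line marks equal values. Of the 48 points 44 lie above the line, and most mitosis genes sit above 0 on the vertical axis, 13 of 21.

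After 6 days without LIF every member's fitted value was higher in Rbp2-/- than in Rbp2f/f cells, 48 of 48, but none passed the adjusted threshold. limma called 0 members and 0% of all genes at adjusted p under 0.05. The targeted gene Kdm5a was itself not called in either medium, so a lack of calls between genotypes does not show a lack of difference. At an unadjusted p under 0.05, 20 members were higher and 0 lower, beside 643 genes higher and 907 lower of all tested, and the lowest adjusted p of a member was 0.16. Of all genes tested, 48.9% lay above 0. The median difference was 0.45 over the members, 0.41 over the replication genes, 0.48 over the mitosis genes and -0.01 over all genes. For 42 of 48 members both Rbp2-/- arrays lay above both Rbp2f/f arrays, against 26.0% of all genes.

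The 48 members are not 48 separate observations, because they shifted together from array to array. On Rbp2f/f without LIF replicate 2, 47 of 48 read lower than on replicate 1, by a median of 0.31, while all genes differed by -0.01. Without that array the median genotype difference was 0.29 and 1 member lay below 0; without replicate 1 of the group it was 0.62. Weighting the arrays by quality called 2 members, Mcm2 and Mad2l1, among 227 of the 10916 genes.

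Mad2l1, the checkpoint protein that restrains Cdc20, was highest in difference, with 1944 and 1302 in Rbp2-/- and 890 and 806 in Rbp2f/f (0.90 ± 0.23, adjusted p = 0.16, and 0.048 with array weights). Mcm2 read 1784 and 1974 against 1118 and 1080 (0.76 ± 0.21, adjusted p = 0.169, and 0.048 with array weights). Over the other settings the adjusted p reached 1 for both. Rfc4, a clamp loader subunit, read 469 and 377 against 277 and 193 (0.82 ± 0.24, adjusted p = 0.182), and the primase Prim1 844 and 611 against 494 and 358 (0.75 ± 0.21, adjusted p = 0.172). In these 4 genes the genotypes did not overlap. Cdt1, at 1493 and 1368 against 1047 and 828, differed by 0.61 ± 0.17 (adjusted p = 0.176), Ccna2, at 1845 and 1780 against 1241 and 996, by 0.70 ± 0.19 (adjusted p = 0.169), and Aurka, at 1187 and 967 against 751 and 565, by 0.70 ± 0.19 (adjusted p = 0.169).

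The chromosomal passenger kinase Aurkb was at 0.72 ± 0.28 (631 and 379 against 330 and 255, adjusted p = 0.286) and Cenpa at 0.62 ± 0.19 (1611 and 1206 against 1014 and 805, adjusted p = 0.205). Ttk read 243 and 191 against 174 and 136 (0.45 ± 0.20, adjusted p = 0.356), Tpx2 492 and 378 against 348 and 281 (0.44 ± 0.21, adjusted p = 0.372) and Kif20a 529 and 516 against 431 and 364 (0.39 ± 0.20, adjusted p = 0.408). In all 5 the Rbp2-/- arrays were the higher pair. The values nearest 0 were those of Ccne2 at 0.07, Rrm1 at 0.12, Mcm7 at 0.16 and Cdc20 at 0.18 ± 0.14, with a 95% interval from -0.13 to 0.49 for Cdc20. For Rrm1 the arrays overlapped, at 1545 and 1176 against 1436 and 1065 (SE 0.19, adjusted p = 0.814). Rrm2 read 3163 and 3380 against 2873 and 2669 (0.24 ± 0.13, adjusted p = 0.429), and Ccne1 619 and 747 against 562 and 605 (0.22 ± 0.21, adjusted p = 0.669). E2f1 read 128 and 108 against 98.8 and 79.4 (0.35 ± 0.22, adjusted p = 0.492), but its difference was -0.01 when its probe sets were averaged. By role the medians ran from 0.18 for nucleotide supply to 0.60 for centromere genes. The 43 dimmer probe sets of 31 members that reached the brightness cut, not used in these counts, were higher in Rbp2-/- in 40 cases. Their median was 0.33. Probe sets below the cut were left out of this tally, and some of them were lower in Rbp2-/-.

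In the same arrays the summed ES cell markers were lower in Rbp2-/- (3559 and 3994 against 4719 and 4886) and the summed early differentiation markers were higher (4530 and 4374 against 2927 and 2562). That second sum was carried by Hand1, at 3480 and 1720 against 1110 and 456. Of the 9 early differentiation markers tested 4 lay above 0 and 5 below, with a median of -0.38, so most of that list did not share the direction of its sum. The part of these markers in the members' values was not tested.

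**Figure D4:**
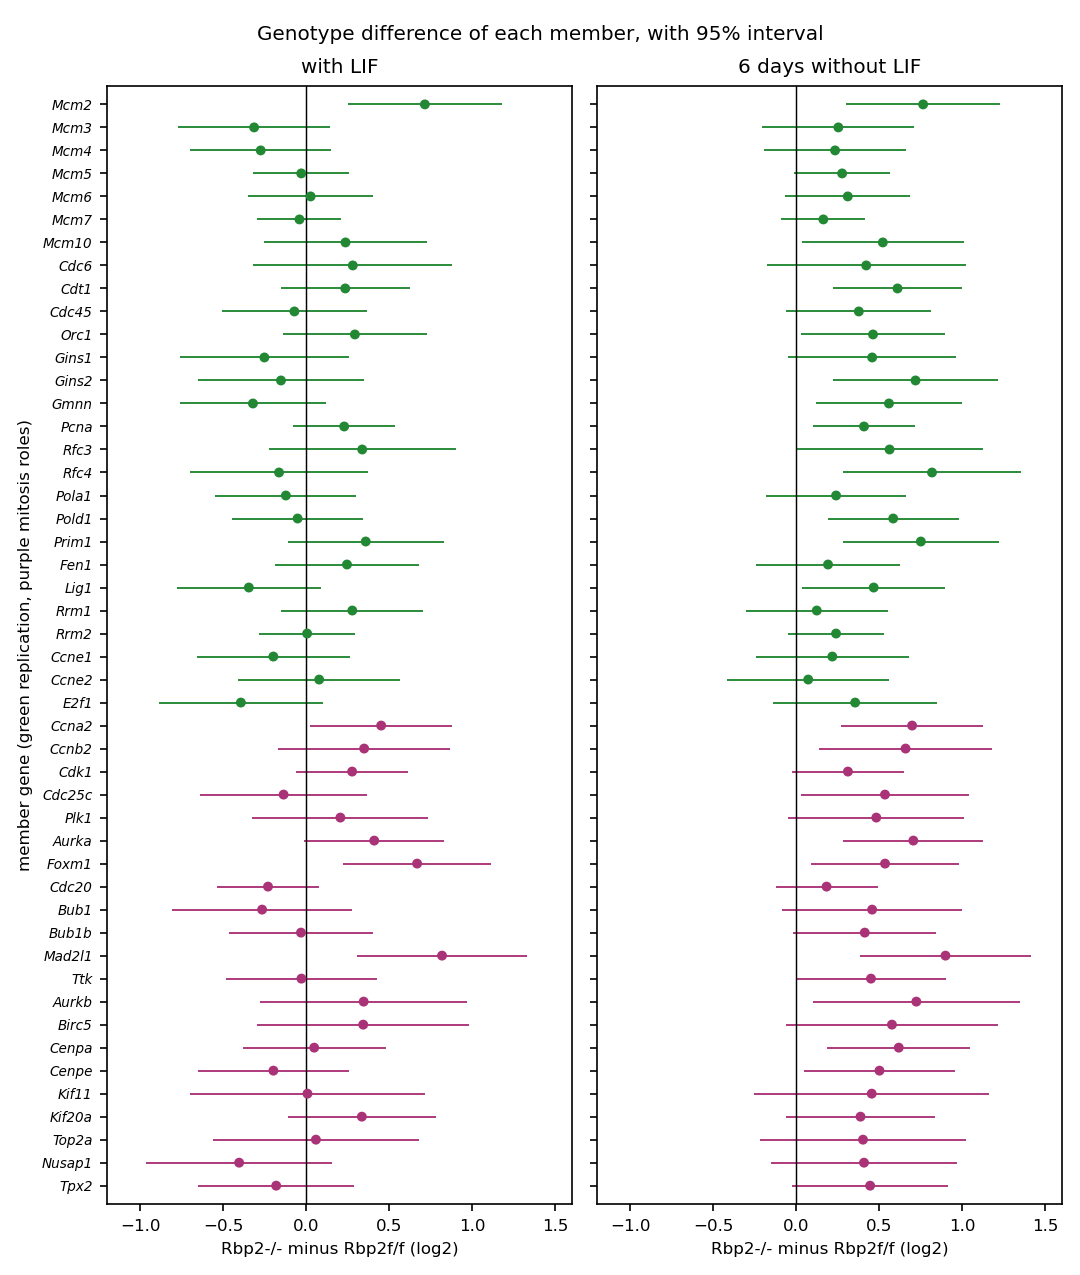
Log2 difference of Rbp2-/- from Rbp2f/f with its 95% interval for each of the 48 tested members, with LIF (left) and 6 days without LIF (right). With LIF the points fall on both sides of 0, 26 above and 22 below; without LIF all 48 lie above 0, between 0.07 and 0.90, and none passed the adjusted threshold.

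With LIF present, the genotypes showed no common direction. Of 48 members 26 lay above 0 and 22 below, with a median of 0.02 and a range from -0.41 to 0.82, and the median over all genes was -0.01. limma called 0 members and 0% of all genes; at an unadjusted p under 0.05, 4 members were higher and 0 lower, beside 697 genes higher and 724 lower. Both Rbp2-/- arrays lay above both Rbp2f/f arrays for 11 of 48 members, where 18.6% of all genes did. They lay below both for 8 of 48 members and 2334 of 10916 genes. Median centring of the arrays, in place of quantile normalisation, put the members' median at -0.19, and the deposited scale put it at -0.05 relative to all genes. Of the 43 dimmer probe sets of 31 members that reached the brightness cut, only 27 had the sign of their gene's brightest set here. Among the others, 1 set of Prim1 gave -0.02 where the brightest gave 0.36, and 1 set of Cdc20 gave 0.10 against -0.23. Single-gene values with LIF rest on the brightest set alone.

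The 4 members at unadjusted p under 0.05 included Mad2l1, at 1851 and 1722 against 831 and 1220 (0.82 ± 0.23, adjusted p = 0.21), Mcm2, at 3208 and 2841 against 1443 and 2332 (0.71 ± 0.21, adjusted p = 0.221), and Foxm1, the activator of mitotic genes, at 337 and 429 against 206 and 266 (0.67 ± 0.20, adjusted p = 0.228). In each the Rbp2-/- arrays were the higher pair, and in Mcm2 the Rbp2f/f arrays were far apart. Ccna2 was the fourth, at 1841 and 2167 against 1234 and 1722 (0.45 ± 0.19, adjusted p = 0.359).

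Values below 0 with LIF did not pass either. E2f1 read 211 and 153 in Rbp2-/- and 268 and 217 in Rbp2f/f (-0.40 ± 0.22, limma adjusted p = 0.475), Lig1 903 and 679 against 1022 and 980 (-0.35 ± 0.19, adjusted p = 0.472), Gmnn 1080 and 798 against 1242 and 1093 (-0.32 ± 0.20, adjusted p = 0.501) and Cdc20 3195 and 3672 against 3972 and 4079 (-0.23 ± 0.14, adjusted p = 0.495). In these 4 the Rbp2-/- arrays were the lower pair. Nusap1, at 465 and 405 against 460 and 731 (-0.41 ± 0.25, adjusted p = 0.501), and Ccne1, at 1300 and 1276 against 1826 and 1200 (-0.20 ± 0.21, adjusted p = 0.701), overlapped.

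Above 0 with LIF, Prim1 read 800 and 813 against 651 and 602 (0.36 ± 0.21, limma adjusted p = 0.492) and Rrm1 1145 and 1219 against 937 and 1009 (0.28 ± 0.19, adjusted p = 0.548), both with the Rbp2-/- pair higher. Aurkb read 536 and 368 against 313 and 384 (0.34 ± 0.28, adjusted p = 0.613), Birc5 2282 and 1285 against 1331 and 1366 (0.34 ± 0.28, adjusted p = 0.625) and Kif20a 683 and 541 against 417 and 550 (0.33 ± 0.20, adjusted p = 0.498), and these overlapped. Rrm2 read 3542 and 4305 against 4017 and 3775, a difference of 0.00 ± 0.13 (adjusted p = 0.993). In 10 members the genotypes stood apart, Rbp2-/- higher, in both media: Mcm2, Orc1, Pcna, Prim1, Ccna2, Ccnb2, Cdk1, Aurka, Foxm1 and Mad2l1. Of all genes tested 6.70% did so. Because 42 of 48 members stood apart in that direction without LIF, nearly all of the 11 apart with LIF were bound to be in both. With LIF the share of all genes was 18.6%, so the 10 are no separate trait of these members. Dimmer probe sets of Prim1 and Orc1 above the brightness cut gave -0.02 and -0.10 with LIF, while those of Mcm2, Ccna2 and Foxm1 above it lay above 0. The Gapdh 3′ to 5′ ratio was 1.11 on Rbp2f/f with LIF replicate 1 and 0.782 to 0.85 on the other arrays. The median mitosis gene read 9.18 on that array and 9.59 on its replicate. The 18S RNA control read 237.8 and 213.4 in Rbp2f/f with LIF and 33.7 to 106.2 on the arrays of the other groups. Whether RNA quality differed, and its part in the values, was not tested.

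The direct test of whether the genotypes responded differently to LIF withdrawal, the interaction term over all 8 arrays, called 0 members and 0% of all genes. It uses the same arrays as the comparisons above and is no separate evidence. At an unadjusted p under 0.05, 8 members and 538 of all genes were higher, and 0 members and 683 genes lower. In 44 of 48 members the withdrawal difference was higher (less negative or more positive) in Rbp2-/- cells, with a median of 0.37, where 50.4% of all genes lay above 0. The 4 exceptions were Fen1, Rrm1, Ccne2 and Foxm1. Of the 23 members that fell in Rbp2f/f cells 22 had a less negative value in Rbp2-/-. These 23 were picked for their low values in Rbp2f/f, which favours a less negative second value beforehand. The count is thus no support for a difference, and it was not made over all genes called lower. Across the 48 members the withdrawal differences in the genotypes, which share no array, correlated at 0.78, and across all genes tested at 0.74, a description over genes that share arrays.

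Rfc4 had the widest gap, at -0.68 in Rbp2f/f (368 and 396, then 277 and 193) and 0.30 in Rbp2-/- (407 and 281, then 469 and 377) with an interaction of 0.98 ± 0.34 (limma adjusted p = 0.386). Gmnn went from 1242 and 1093 to 833 and 686 in Rbp2f/f and from 1080 and 798 to 1234 and 1017 in Rbp2-/- (0.88 ± 0.28, adjusted p = 0.384). Gins2 read 440 and 397, then 414 and 318, in Rbp2f/f and 319 and 438, then 691 and 533, in Rbp2-/- (0.87 ± 0.31, adjusted p = 0.4). Lig1 read 1022 and 980, then 637 and 490, in Rbp2f/f and 903 and 679, then 810 and 747, in Rbp2-/- (0.81 ± 0.27, adjusted p = 0.386). In each of these genes the lowest array of the Rbp2-/- pair without LIF was above the highest Rbp2f/f array without LIF. The same held for 42 of 48 members and 26.0% of all genes.

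For the mitosis genes the terms were also above 0 without passing. Nusap1 read 460 and 731, then 541 and 461, in Rbp2f/f and 465 and 405, then 793 and 562, in Rbp2-/- (0.81 ± 0.35, limma adjusted p = 0.443). Bub1, a checkpoint kinase, read 541 and 730, then 500 and 365, against 616 and 438, then 648 and 541 (0.72 ± 0.34, adjusted p = 0.47). Cdc25c, the phosphatase that activates Cdk1, read 137 and 159, then 120 and 90.5, against 149 and 118, then 184 and 136 (0.67 ± 0.32, adjusted p = 0.472). With array values already given, the term was 0.70 ± 0.29 for Cenpe (adjusted p = 0.435), 0.41 ± 0.19 for Cdc20 (adjusted p = 0.47) and 0.30 ± 0.27 for Aurka (adjusted p = 0.691). Cenpa, at 1609 and 1325, then 1611 and 1206, in Rbp2-/-, gave 0.57 ± 0.27 (adjusted p = 0.474). Tpx2, at 417 and 349, then 492 and 378, in Rbp2-/-, gave 0.63 ± 0.30 (adjusted p = 0.472). Among S phase and nucleotide genes the terms were 0.75 ± 0.31 for E2f1 (adjusted p = 0.436), 0.42 ± 0.29 for Ccne1 (adjusted p = 0.609), 0.23 ± 0.18 for Rrm2 (adjusted p = 0.645) and -0.15 ± 0.27 for Rrm1 (adjusted p = 0.858). For Pola1, which fell in both genotypes, the 95% interval of the term ran from -0.24 to 0.96, so that neither equal responses nor a clear gap could be told from these arrays.

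Other genes of the same pathways, from lists outside the members, were read in the same fit. Of 34 other replication genes tested, 18 fell on withdrawal in Rbp2f/f (median -0.66) and 9 in Rbp2-/- (median -0.20). Tipin, a fork protection protein, fell in both, with differences of -1.16 (limma adjusted p = 0.0015) and -0.74 (adjusted p = 0.014). So did the single-strand binding subunit Rpa2, at -1.64 in Rbp2f/f (limma adjusted p = 0.0023) and -1.12 in Rbp2-/- (adjusted p = 0.016). The origin subunit Orc2 also fell in both, at -0.72 in Rbp2f/f (limma adjusted p = 0.025) and -0.95 in Rbp2-/- (adjusted p = 0.013). Without LIF 31 of the 34 lay above 0 between genotypes (median 0.27) and none passed, with the polymerase subunit Pold2 at 1.59 ± 0.25 (adjusted p = 0.11). Of 45 other mitosis genes, 15 fell in Rbp2f/f (median -0.48) and 4 in Rbp2-/- (median 0.04). Those of smallest p were Ect2, a cytokinesis factor, at -1.15 (adjusted p = 0.002) and Fbxo5, an inhibitor of the anaphase-promoting complex, at -1.24 (adjusted p = 0.0021) in Rbp2f/f, and Cdca5, a cohesion factor, at -0.97 (adjusted p = 0.0085) and Ube2c, the ubiquitin-conjugating enzyme of that complex, at -0.65 (adjusted p = 0.03) in Rbp2-/-. Ect2 was also called in Rbp2-/-, at -0.59 (limma adjusted p = 0.043). The genotype difference of the other mitosis genes was above 0 in 39 of 45 without LIF (median 0.34). With LIF it was below 0 in 31 of 45 (median -0.20), and none was called in either medium.

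The regulators of these programmes moved in both directions. Among 13 E2F, DREAM and MYB factors 3 fell in Rbp2f/f cells and 2 fell and 1 rose in Rbp2-/- cells. Mybl2, which encodes B-Myb, fell by 2.61 on the log2 scale in Rbp2f/f (adjusted p = 9.9e-05) and fell by 2.44 in Rbp2-/- (adjusted p = 8.8e-05), more than any member. E2f4 fell by 0.79 in Rbp2f/f (adjusted p = 0.012) and E2f8 fell by 1.72 in Rbp2-/- (adjusted p = 0.006). Of the G1 cyclins and their partners, Ccnd2 (cyclin D2) rose by 2.47 ± 0.39 in Rbp2f/f (adjusted p = 0.0029) and Ccnf fell by 0.69. Cdkn1a, the p21 inhibitor of CDKs, rose by 2.06 ± 0.41 in Rbp2f/f (adjusted p = 0.0069), from 572 and 318 to 1500 and 2230, while in Rbp2-/- it read 397 and 1010, then 925 and 1060, and did not pass. Without LIF 6 of 8 tested CDK inhibitors and pocket proteins lay below 0 in Rbp2-/- against Rbp2f/f (median -0.69), and none passed.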

How the data were processed

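The authors deposited a linear intensity for each probe set of each array, and the sources used here do not give the summary method, scaling or genome build. The labels record biotinylated cRNA made from total RNA. Of the probe sets 34958 had a single symbol, 932 several and 9211 none. Intensities were quantile-normalised over all probe sets, written as log2(intensity + 16) and reduced to the probe set with the highest mean for each gene. Genes whose mean reached the 40th percentile of all genes (intensity 26.7) were tested with limma 3.58.1 in R 4.3.3, as 4 group means over all 8 arrays with a mean-variance trend (4 residual degrees of freedom), two-sided, Benjamini-Hochberg over 10916 genes, and called at adjusted p under 0.05. The offset makes differences of dim genes too small. The number of arrays limits the precision. The members and lists were chosen with earlier results of these data known. Values on every array, SE and adjusted p are given for the 2 members of each role with the smallest p in a contrast, and for all called members where 12 or fewer are called, with the rest by range and count; genes of other pathway lists were picked from their 2 smallest p in each contrast, and other genes named are examples picked after their values were seen. Probe sets of 7 members (Mcm5, Fen1, Rrm2, Ccne1, Cdc25c, Cdc20 and Aurkb) carry the suffix for possible cross-hybridisation and those of 3 (Mcm3, Mcm7 and Gins2) the suffix for shared transcripts. The fit was tested on simulated data with noise drawn separately for each gene and array. That test does not cover shifts that genes share on an array, as the members did. Alternatives were the deposited scale, median centring, offsets of 4 and 64, filters at none and the 60th percentile, averaged probe sets, no trend, array weights, a replicate block and each array left out.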

Additional observations from a re-analysis of the deposited data

Results flagged for a closer look

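The values of Cenpe on LIF withdrawal had opposite signs in the 2 genotypes, and neither passed (-0.38 and 0.32 on the log2 scale). Cenpe read 293 and 270 with LIF and 244 and 186 without in Rbp2f/f, and 263 and 225 with LIF and 342 and 276 without in Rbp2-/-. Both arrays without LIF lay below in the first and above in the second. Cenpe was the only 1 of 48 members to do so. The share of all genes that did so was not counted, so the pattern cannot be called particular to Cenpe or to the members. The interaction was 0.70 ± 0.29 on the log2 scale and did not pass either (limma adjusted p = 0.435).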

How the results depend on the processing

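In all 18 alternatives the members' median kept its sign on withdrawal in both genotypes, between genotypes without LIF and in the interaction, and no member was called between genotypes with LIF or in the interaction. Leaving out each array in turn, the members called on withdrawal ranged from 6 to 23 in Rbp2f/f and from 1 to 7 in Rbp2-/-. The members' median ranged from -0.76 to -0.34 and from -0.22 to -0.10 for these, from 0.29 to 0.62 between genotypes without LIF, from -0.02 to 0.10 with LIF and from 0.21 to 0.54 for the interaction. On the deposited scale 12 and 3 members were called on withdrawal in Rbp2f/f and Rbp2-/-, beside 2183 and 2486 of all genes. With no filter it was 15 and 4 members, beside 2551 and 1302 genes. Median centring called 4 in Rbp2-/-, beside 1552 genes. Array weights called 2 between genotypes without LIF, beside 227 of all genes. Median centring turned the median with LIF to -0.19 and the deposited scale to -0.05, relative to all genes. On the deposited scale the all-gene median was -0.28 between genotypes with LIF and 0.39 on withdrawal in Rbp2-/-. With the replicate number as a block 25 and 9 members were called on withdrawal, beside 3208 and 1898 of all genes. In the other contrasts the block called 0 members. Beside these it called 3 of all genes between genotypes with LIF, 29 without LIF and 1 in the interaction. Between genotypes the replicate differences correlated at -0.07 with LIF and 0.26 without. On withdrawal they correlated at -0.05 in Rbp2f/f and 0.27 in Rbp2-/-, so whether the numbers pair the arrays was not settled. Some named genes changed sign. Rrm2 with LIF read -0.035 on the deposited scale and -0.18 with median centring, Rrm1 in the interaction 0.038 with median centring, and E2f1 without LIF -0.014 with averaged probe sets. With arrays left out Rrm2 with LIF ran from -0.13 to 0.14, Ccne1 with LIF from -0.50 to 0.10, Birc5 with LIF from -0.068 to 0.75 and on withdrawal in Rbp2-/- from -0.11 to 0.72. For Rrm1 the ranges were -0.37 to 0.058 in the interaction, -0.092 to 0.34 without LIF and -0.0061 to 0.39 on withdrawal in Rbp2-/-. The cause of these changes was not tested. Having 2 arrays a group limits the precision.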

Other observations

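Tyms shares a probe set with a pseudogene, so that set was not used for it. With LIF the shared set read 445 and 545 in Rbp2f/f cells and 460 and 410 in Rbp2-/- cells. Without LIF the readings were 449 and 380 for Rbp2f/f and 425 and 458 for Rbp2-/-. The groups overlapped throughout.

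Ccne1 had a second probe set with log2 differences on withdrawal of -1.80 in Rbp2f/f and -1.93 in Rbp2-/-, and a genotype difference without LIF of -0.03 where the brighter set gave 0.22. The second set of Gins2 gave a genotype difference without LIF of 1.31, against 0.72 for the brighter set.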
